A study of Homo sapiens with 24 samples.

Results

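HOX cluster genes encode homeodomain transcription factors, and the array carried 43 probes for 39 of them, among 34127 non-control probes of 27274 gene names. Members were all non-control probes whose gene name was HOXA, HOXB, HOXC or HOXD followed only by digits, ordered along each cluster by the position that the files give in NCBI36. The 4 clusters lay on chromosome 7 (HOXA), 17 (HOXB), 12 (HOXC) and 2 (HOXD), and HOXA9, HOXA10, HOXB2 and HOXD9 had 2 probes each. All 24 samples came from one clone of HCT-116, a human colorectal carcinoma line with an activating beta-catenin mutation, into which the Tet repressor and a Tet-inducible dominant negative Tcf4 (DN-Tcf4) had been stably introduced. DN-Tcf4 lacks the stretch that binds beta-catenin and so competes with the cell's own TCF factors for Wnt target genes. Each of 6 experiments held an untreated culture (Ctl), a culture given 5 mM sodium butyrate (NaB), one given 4 µg/ml doxycycline (Doxy) and one given both agents (DoxyNaB). The labels give 17.5 hr for either agent, whereas the study's methods place doxycycline before butyrate and give that time for the step with butyrate. Every group, the untreated one included, therefore carried the repressor and the DN-Tcf4 construct, and a single clone limits how far the cells stand for the line.

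HOX genes are arranged in the same order along their chromosome as the body regions in which they act, with low numbers working towards the head and high numbers towards the tail. Genes of the same number in different clusters are called paralogues, and their proteins bind DNA with TALE-class partners such as PBX and MEIS. In the adult colon epithelium several HOX genes of the A, B and C clusters stay active. Their chromatin is kept silent by Polycomb complexes and open by Trithorax complexes, and retinoic acid is a classic inducer of genes at the low-numbered end. Butyrate, a fermentation product of colonic bacteria, inhibits histone deacetylases.

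Signal strength differed between experiments. Between 78.4% and 88.1% of spots were well above background in experiments 2 to 4, against 52.7% to 62.6% in experiments 1, 5 and 6, and the signal left in negative controls was highest on 2 arrays with butyrate (161 in NaB of experiment 3 and 248.9 in DoxyNaB of experiment 2, against 48.4 to 115 on the other 22). The construct was checked through TCF7L2, the gene of Tcf4, and AXIN2, a Wnt target. AXIN2 had a log2 change of -0.58 in Doxy/Ctl and of -2.53 in DoxyNaB/NaB (limma adjusted p = 0.00289 and 2.63e-11, lower in 6 of 6 experiments each). Of 3 TCF7L2 probes, A_23_P127013 changed by 0.30 in Doxy/Ctl (adjusted p = 0.861) and rose by 4.46 in DoxyNaB/NaB (adjusted p = 1.77e-06), A_23_P389588 by -0.17 (adjusted p = 0.921) and 2.96 (3.64e-05), and A_33_P3377304 by 0.36 (adjusted p = 0.618) and -1.25 (0.00567). Butyrate without doxycycline also moved these genes. In NaB/Ctl AXIN2 rose by 1.19 (limma adjusted p = 2.06e-09). The 3 TCF7L2 probes, in the same order, changed there by 1.90, 0.91 and -0.08 (limma adjusted p = 0.000468, 0.0294 and 0.777).

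Levels below are log2 signals minus the log2 of the array's 75th percentile, so that 0 is that percentile and a difference of 1 is 2-fold. A probe was tested when all 6 arrays of at least 1 treatment were well above background, which held for 30 HOX probes of 27 genes. The tested genes were 9 of 10 in HOXB, 6 of 9 in HOXC and 2 of 9 in HOXD. Of the 43 probes, 16 probes of 14 genes were well above background on all 24 arrays. The probes of HOXC11 and HOXD1 were well above background on no array. The other untested probes, among them those of HOXB1, HOXC10, HOXC12, HOXD4, HOXD9 (both), HOXD10, HOXD11, HOXD12 and HOXD13, were well above background on some arrays. Over the 13 untested probes this was so in 96 of 156 pairs of probe and array in experiments 2 to 4 and in 7 of 156 in experiments 1, 5 and 6, and only 4 of the 13 probes reached it on any array of the latter. Which HOXD genes counted as detected therefore went with the experiment.

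**Figure D1:**
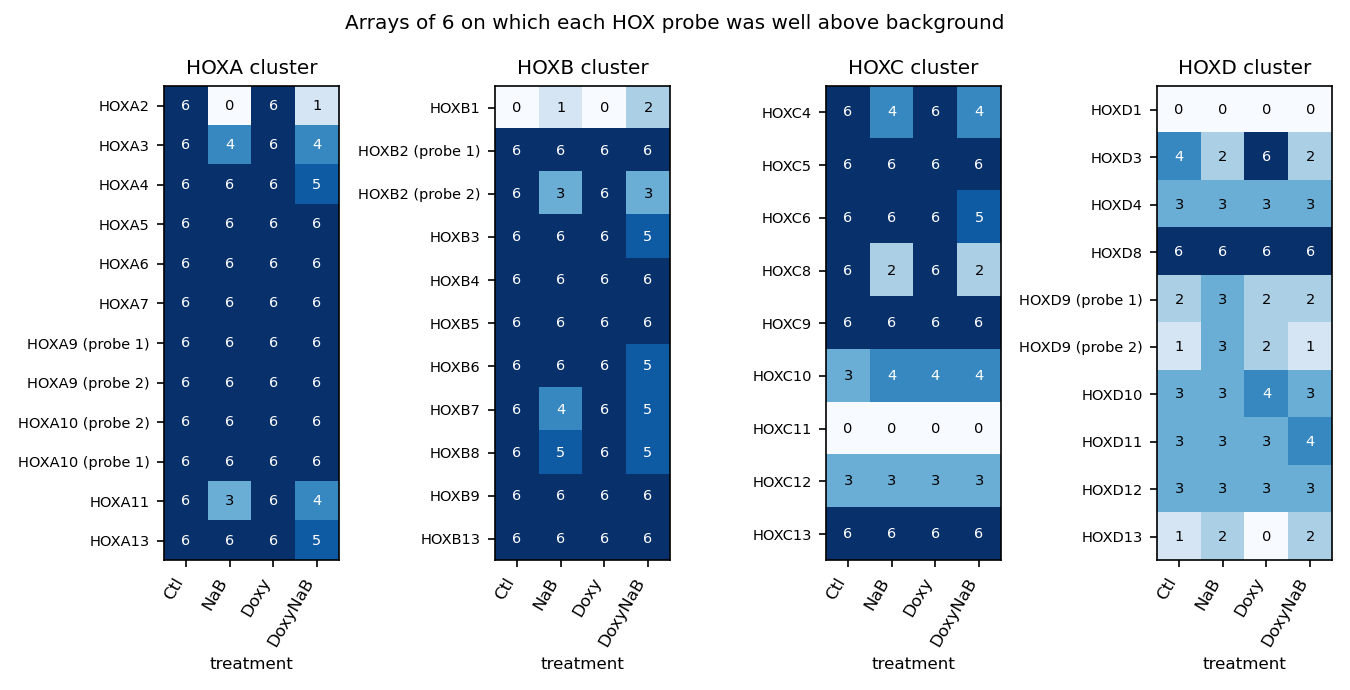
Number of arrays (0 to 6) on which each HOX probe shown was well above background, by treatment, with a panel for each cluster and probes in paralogue order. HOXA and HOXB rows are mostly at 6, whereas 2 of 9 HOXD genes, HOXD3 and HOXD8, reached 6 in any treatment.

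The first question was what butyrate did to the clusters. In NaB/Ctl, 15 of 30 tested HOX probes, of 14 genes, fell by over 2-fold with a limma adjusted p under 0.01, where 11% of all 18966 tested probes did so. Among those that fell, HOXA2, HOXA3, HOXB7, HOXB8 and HOXC8 were well above background on all 6 arrays only in the groups without butyrate. They were therefore tested, here and in DoxyNaB/Doxy, through the groups where they were high. 3 probes rose, those of HOXB2, HOXB13 and HOXD8, where 20.7% of all tested probes did so. The median log2 change was -0.995 over the 30 HOX probes and 0.17 over all tested probes. By adjusted p alone 17 were lower and 5 higher (28.2% and 40.1% of all tested probes), and for 12 lower and 4 higher probes no NaB array overlapped a Ctl array (18.9% and 24.2%). The split moved with the scaling, to 21 lower and 1 higher with median scaling (32.3% and 8.66% of all tested probes, median over all tested probes -0.58), so changes here are relative to the array's 75th percentile. Since these are bulk samples, fewer cells that carry a transcript and less of it per cell cannot be told apart.

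In DoxyNaB/Doxy, the same agent in cells also given doxycycline, 18 HOX probes of 17 genes fell, with 12.3% of all tested probes called lower, and HOXB2 alone rose, with 18.3% called higher. The median was -1.13 over HOX probes and 0.10 over all tested probes. By adjusted p alone 19 were lower and 5 higher (29.7% and 37.3%), and 11 lower and 3 higher probes did not overlap (19.9% and 21.6%). Median scaling again gave 21 lower and 1 higher (27.7% and 9.23%, median over all tested probes -0.46). The 14 genes that fell in NaB/Ctl fell here too, and HOXA6, HOXB3 and HOXC9 were added. Both comparisons carry butyrate, and the share of all tested probes called lower in both was not counted. The overlap is therefore not read as a trait of HOX genes. The 2 comparisons have no array in common and were fitted together.

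**Figure D2:**
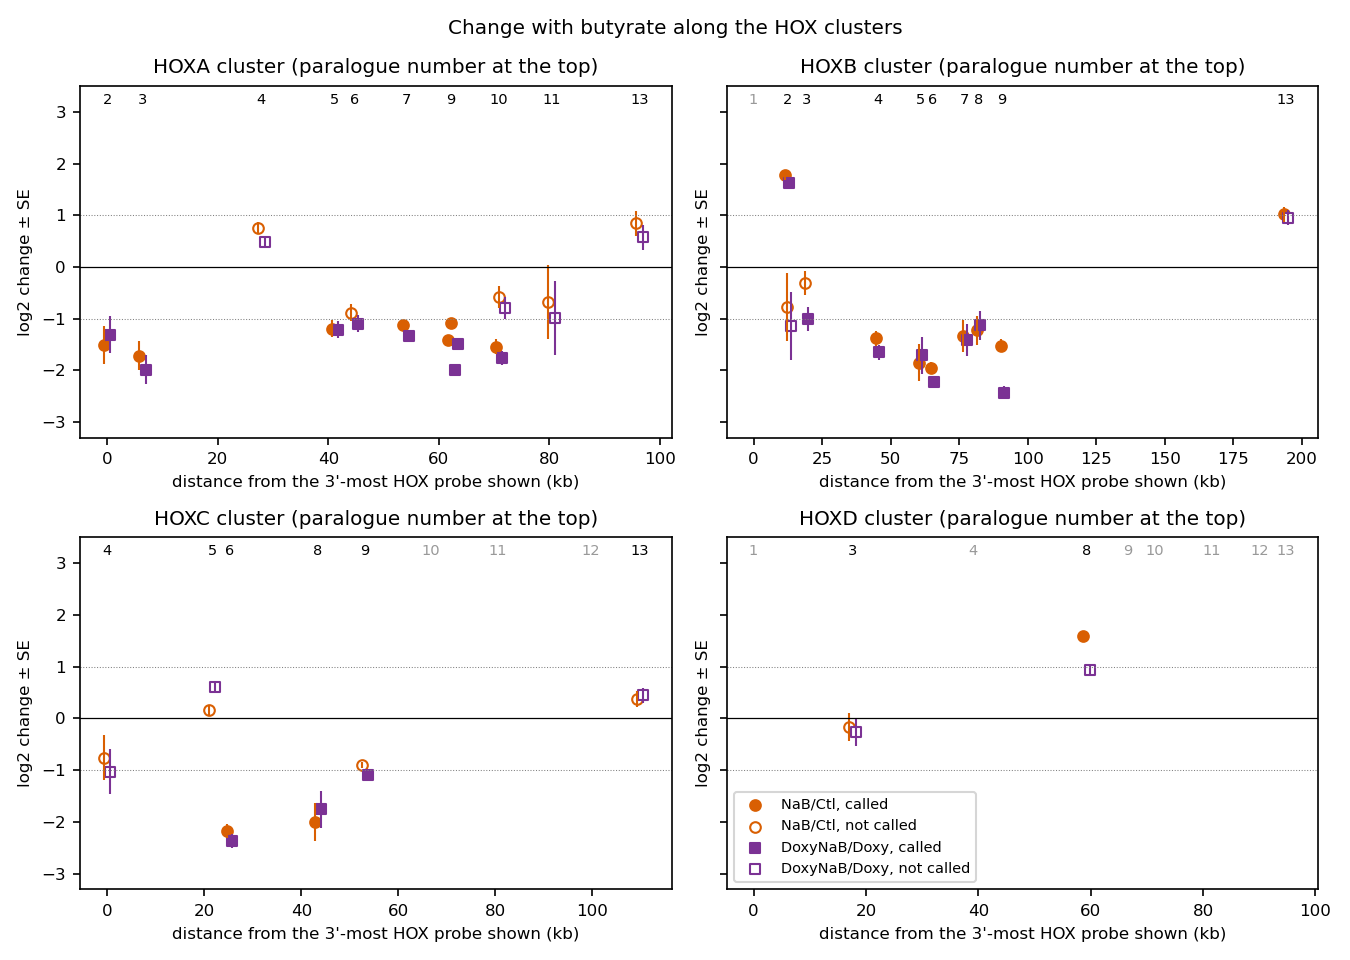
Log2 change (± SE, 6 experiments) of each tested HOX probe in NaB/Ctl and DoxyNaB/Doxy against distance in kilobases from the 3′-most HOX probe shown for its cluster. Filled points passed both thresholds, dotted lines mark 2-fold and grey numbers are genes not tested. Most HOXA, HOXB and HOXC points lie below 0, and HOXB2, HOXB13 and HOXD8 stand above it.

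The middle numbers held 14 of the 30 tested probes. In NaB/Ctl paralogues 4 to 8 had 9 of 14 probes called lower and 1 higher (median -1.21), paralogues 9 to 13 had 4 of 10 lower and 1 higher (median -0.79), and paralogues 1 to 3 had 2 of 6 lower and 1 higher (median -0.54). In DoxyNaB/Doxy the same stretches had 10 of 14, 5 of 10 and 3 of 6 probes lower, with medians of -1.28, -1.04 and -1.07. No difference between these stretches was tested. The cluster medians in NaB/Ctl were -1.10 in HOXA, -1.28 in HOXB and -0.83 in HOXC, and 0.71 over the 2 HOXD probes tested.

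HOXA, the first cluster, held 7 of the 15 lower probes in NaB/Ctl and 8 of 18 in DoxyNaB/Doxy. HOXA9, a posterior gene also known as an oncogene in leukaemia, had the lowest adjusted p of the 30 tested HOX probes in both comparisons. Its probe at chr7:27169113-27169172 (- strand) read 2.15 to 2.44 (median 2.41) in Ctl, 0.82 to 1.11 (median 0.95) in NaB, 2.30 to 2.45 (median 2.39) in Doxy and 0.10 to 0.53 (median 0.44) in DoxyNaB. Neither pair of groups overlapped, and HOXA9 fell by 2.65-fold in NaB/Ctl (log2 -1.40 ± 0.08, adjusted p = 9.73e-12) and by 3.99-fold in DoxyNaB/Doxy (log2 -1.995 ± 0.08, adjusted p = 9.16e-14). HOXA7, a gene of the middle of the cluster, read -0.21 to 0.18 (median -0.07) in Ctl and -1.495 to -0.89 (median -1.07) in NaB, again without overlap, and changed by -1.12 ± 0.10 (adjusted p = 1.18e-08) and -1.34 ± 0.10 (adjusted p = 1.00e-09) in the 2 comparisons. HOXA5, whose loss in mice disturbs lung and gut development, read -0.90 to -0.29 (median -0.65) in Ctl and -2.49 to -1.33 (median -1.68) in NaB. Its groups did not overlap either, with changes of -1.19 ± 0.16 and -1.21 ± 0.16 (adjusted p = 3.12e-06 and 2.70e-06). HOXA6 read -1.30 to -0.66 (median -1.02) in Ctl and -2.54 to -1.45 (median -1.74) in NaB, and its change of -0.88 ± 0.17 (adjusted p = 0.000124) was under 2-fold, whereas that of -1.09 ± 0.17 (adjusted p = 1.21e-05) passed both thresholds.

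The probes of HOXA2 and HOXA3 came close to background with butyrate. HOXA3, which patterns the pharyngeal arches, read -2.97 to -1.73 (median -2.38) in Ctl and -5.46 to -2.93 (median -3.96) in NaB, where 4 of 6 arrays were well above background. The groups overlapped, but the gene was lower in 6 of 6 experiments and changed by -1.72 ± 0.28 in NaB/Ctl (adjusted p = 1.99e-05) and -1.98 ± 0.28 in DoxyNaB/Doxy (adjusted p = 3.68e-06). HOXA2, a gene of the hindbrain and second pharyngeal arch, read -5.02 to -3.74 (median -4.23) in Ctl and -7.30 to -3.81 (median -5.77) in NaB, and was not well above background on any NaB array. Only a bound applies to its level there. With NaB values raised to at least the lowest level well above background on their array, the NaB mean was 1.24-fold below that of Ctl. That value makes no allowance for spread. The fit gave -1.51 ± 0.36 (adjusted p = 0.00106, lower in 5 of 6 experiments). In DoxyNaB/Doxy the change was -1.31 ± 0.36 (adjusted p = 0.00341), and it turned to 0.31 under normexp background correction. HOXA11 did not pass (-0.68 ± 0.71, adjusted p = 0.398). HOXA4 had a change of 0.76 and HOXA13 of 0.85 in NaB/Ctl (adjusted p = 5.46e-06 and 0.00436), under 2-fold, and both values were negative under quantile normalization (-0.47 and -0.29), so that no direction holds for these genes.

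In HOXB, 6 of 10 tested probes fell and 2 rose in NaB/Ctl, and 7 fell and 1 rose in DoxyNaB/Doxy. HOXB6, at chr17:44028192-44028251 (- strand), read -0.85 to -0.34 (median -0.66) in Ctl, -3.05 to -2.12 (median -2.59) in NaB, -0.94 to -0.48 (median -0.83) in Doxy and -3.24 to -2.62 (median -3.07) in DoxyNaB. No array with butyrate reached one without it, and the fall was 3.87-fold in NaB/Ctl (log2 -1.95 ± 0.11, adjusted p = 2.37e-11) and 4.68-fold in DoxyNaB/Doxy (log2 -2.23 ± 0.11, adjusted p = 3.86e-12). HOXB9, at chr17:44053614-44053673 (- strand), a posterior gene of the thoracic region, read -1.09 to -0.71 (median -0.86) in Ctl, -2.78 to -2.05 (median -2.34) in NaB, -0.52 to -0.17 (median -0.36) in Doxy and -3.03 to -2.42 (median -2.82) in DoxyNaB. Its groups were separate too, with a fall of 2.87-fold in NaB/Ctl (log2 -1.52 ± 0.12, adjusted p = 1.94e-09) and of 5.39-fold in DoxyNaB/Doxy (log2 -2.43 ± 0.12, adjusted p = 3.04e-12). HOXB4, known for expanding blood stem cells, read -0.89 to 0.09 (median -0.57) in Ctl and -2.56 to -1.58 (median -1.66) in NaB and changed by -1.38 ± 0.14 and -1.65 ± 0.14 (adjusted p = 9.26e-08 and 8.82e-09).

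HOXB5, which acts in the enteric nervous system and lung, spread more widely, with -1.16 to 0.15 (median -0.76) in Ctl and -3.63 to -1.36 (median -2.51) in NaB. It changed by -1.85 ± 0.36 in NaB/Ctl, without overlap, and by -1.71 ± 0.36 in DoxyNaB/Doxy, with overlap (adjusted p = 0.000162 and 0.000351). HOXB7 read -3.08 to -1.16 (median -1.997) in Ctl and -4.72 to -1.94 (median -3.61) in NaB, and HOXB8 read -2.91 to -1.53 (median -2.27) in Ctl and -4.86 to -2.27 (median -3.44) in NaB. Both overlapped between groups and passed, HOXB7 with -1.34 ± 0.31 and -1.42 ± 0.31 (adjusted p = 0.000873 and 0.000536) and HOXB8 with -1.23 ± 0.27 and -1.13 ± 0.27 (adjusted p = 0.000574 and 0.00121). HOXB3 changed by -0.30 ± 0.23 in NaB/Ctl (adjusted p = 0.239) and passed only in DoxyNaB/Doxy (-1.01 ± 0.23, adjusted p = 0.000704, lower in 5 of 6 experiments), from -3.23 to -2.46 (median -2.85) in Doxy to -4.71 to -2.62 (median -4.06) in DoxyNaB.

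HOXB13 and the HOXB2 probe of higher mean level ran the other way. HOXB13, the isolated posterior gene of the cluster, which is active in the distal colon and prostate, read -1.68 to -0.80 (median -1.56) in Ctl, -0.70 to -0.07 (median -0.36) in NaB, -1.74 to -1.26 (median -1.48) in Doxy and -1.34 to -0.13 (median -0.48) in DoxyNaB. It was higher in 6 of 6 experiments of both comparisons, by 2.03-fold in NaB/Ctl (log2 1.02 ± 0.14, adjusted p = 3.29e-06) and by 0.95 ± 0.14 on the log2 scale in DoxyNaB/Doxy, short of 2-fold (adjusted p = 7.68e-06). With median scaling the NaB/Ctl value was 0.27 (adjusted p = 0.349), so that the call did not hold there. HOXB2, a hindbrain gene, read -3.25 to -2.82 (median -3.02) in Ctl, -1.47 to -0.79 (median -1.32) in NaB, -3.20 to -2.82 (median -3.06) in Doxy and -1.58 to -1.05 (median -1.41) in DoxyNaB at the probe chr17:43975126-43975185 (- strand). This probe rose by 3.42-fold in NaB/Ctl (log2 1.77 ± 0.10, adjusted p = 1.15e-11) and by 3.097-fold in DoxyNaB/Doxy (log2 1.63 ± 0.10, adjusted p = 3.35e-11), and its NaB/Ctl change under normexp was 0.94 (adjusted p = 0.000848), of the same sign but under 2-fold. The second HOXB2 probe, described with the other pairs of probes, was not called and changed sign between sets of experiments.

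In HOXC, HOXC6 and HOXC8 fell in both comparisons, and HOXC9 passed both thresholds in DoxyNaB/Doxy. HOXC6, at chr12:52710802-52710861 (+ strand), a gene raised in several carcinomas, read -0.71 to -0.39 (median -0.49) in Ctl, -2.95 to -2.55 (median -2.70) in NaB, -0.84 to -0.48 (median -0.61) in Doxy and -3.77 to -2.62 (median -2.88) in DoxyNaB. Its groups lay far apart, and it fell by 4.55-fold in NaB/Ctl (log2 -2.19 ± 0.13, adjusted p = 6.31e-11) and by 5.15-fold in DoxyNaB/Doxy (log2 -2.37 ± 0.13, adjusted p = 2.09e-11). HOXC8 read -3.67 to -2.63 (median -3.22) in Ctl and -6.68 to -3.58 (median -5.40) in NaB, where 2 of 6 arrays were well above background. Its change was -2.002 ± 0.36 in NaB/Ctl and -1.75 ± 0.36 in DoxyNaB/Doxy (adjusted p = 6.51e-05 and 0.000254), with overlapping groups. HOXC9 lay near or above the 75th percentile of the array in every group, with 1.02 to 1.54 (median 1.19) in Ctl, 0.15 to 0.54 (median 0.27) in NaB, 0.95 to 1.64 (median 1.05) in Doxy and -0.06 to 0.25 (median -0.02) in DoxyNaB. It was lower in 6 of 6 experiments without overlap in both comparisons, by 1.87-fold in NaB/Ctl (log2 -0.90 ± 0.06, adjusted p = 3.42e-10) and by 2.12-fold in DoxyNaB/Doxy (log2 -1.09 ± 0.06, adjusted p = 2.69e-11). HOXC4, HOXC5 and HOXC13 had changes of -0.76, 0.16 and 0.38 in NaB/Ctl (adjusted p = 0.119, 0.118 and 0.0296), and the last pair were negative under median scaling (-0.59 and -0.37).

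HOXD8, one of 2 HOXD genes tested, moved against the middle of the other clusters. At chr2:176704355-176704414 (+ strand) it read -2.48 to -1.91 (median -2.20) in Ctl, -0.70 to -0.51 (median -0.62) in NaB, -2.14 to -1.72 (median -1.81) in Doxy and -1.24 to -0.54 (median -1.03) in DoxyNaB. It rose by 3.02-fold in NaB/Ctl (log2 1.60 ± 0.09, adjusted p = 1.31e-11) and was higher by 1.91-fold in DoxyNaB/Doxy (log2 0.93 ± 0.09, adjusted p = 2.01e-08), in 6 of 6 experiments and without overlap both times. Under normexp and median scaling the NaB/Ctl change was 0.97 and 0.85 (adjusted p = 3.73e-05 and 0.000462), of the same sign but under 2-fold. HOXD3 read -5.27 to -4.45 (median -4.70) in Ctl and -6.00 to -4.11 (median -4.82) in NaB, and its change of -0.17 ± 0.27 did not pass (adjusted p = 0.589).

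**Figure D3:**
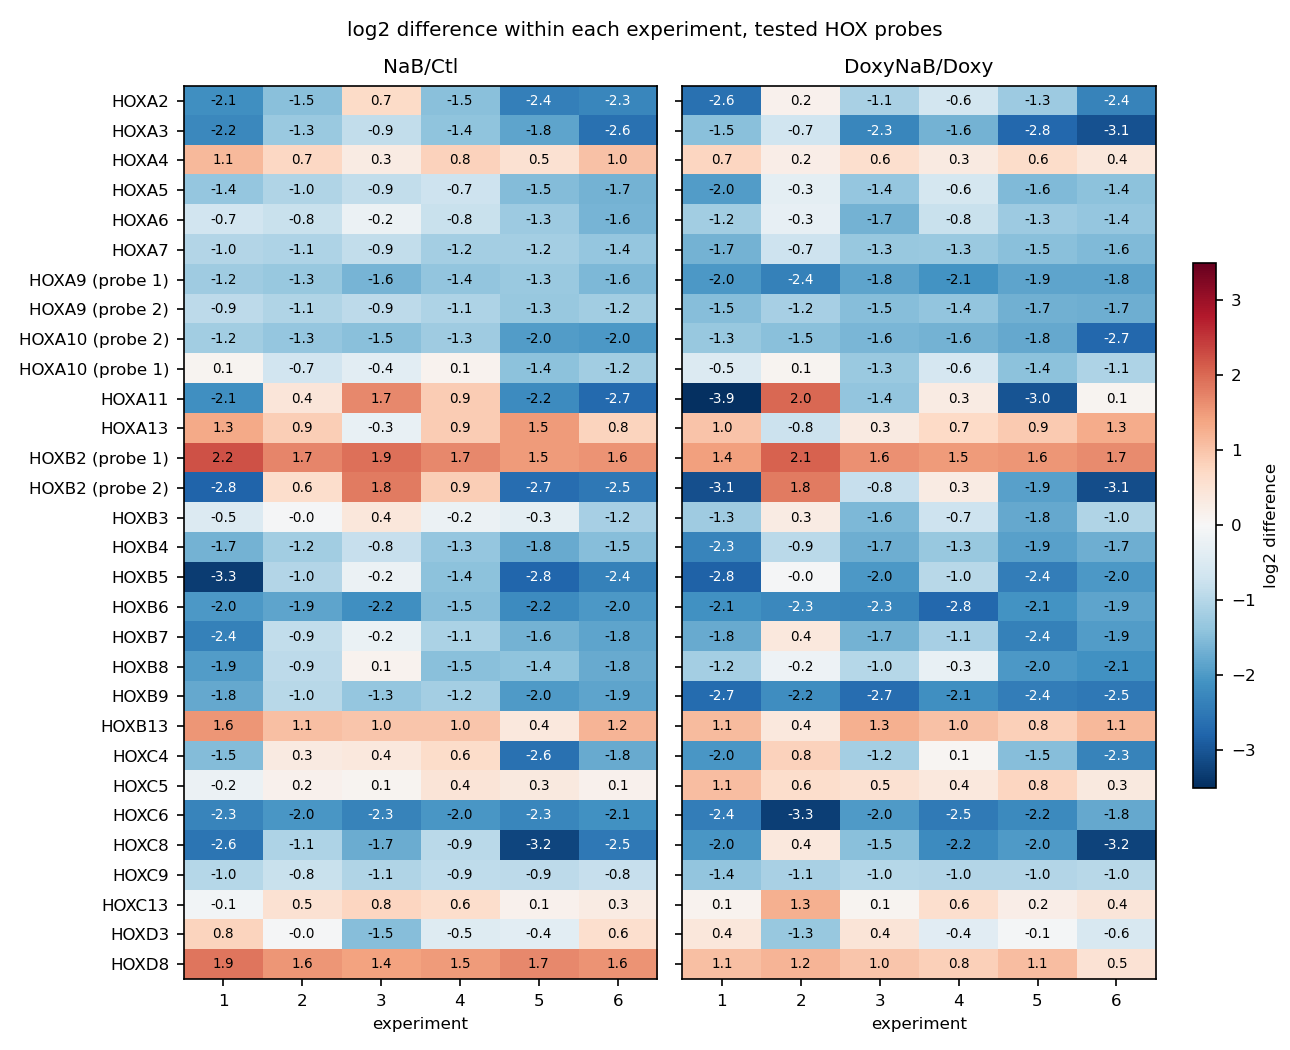
Heatmap of the log2 difference within each of 6 experiments for the 30 tested HOX probes, for NaB minus Ctl and DoxyNaB minus Doxy. HOXA9, HOXB6, HOXB9 and HOXC6 are lower in all 6 columns of both comparisons, and HOXA11, HOXC4 and 1 HOXB2 probe change sign between experiments 2 to 4 and the rest in NaB minus Ctl.

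The size of the fall differed between sets of experiments that were scanned on different days. Scan day cannot be told apart from other differences between these sets. Over the 30 tested HOX probes the median NaB/Ctl change was -1.22 in experiment 1, -0.74 in experiments 2 to 4 and -1.51 in experiments 5 and 6, while over all tested probes it was 0.15, 0.22 and 0.12. In DoxyNaB/Doxy the HOX medians were -1.47, -0.72 and -1.60 (all tested probes 0.11, 0.15 and 0.05). Net signal of negative controls ran from 69.1 to 248.9 with butyrate and from 63.1 to 79.6 without it in experiments 2 to 4, and from 48.8 to 64.3 and 48.4 to 58.0 in experiments 1, 5 and 6. Its part in the HOX values was not tested. With any 1 experiment left out, 17 to 20 HOX probes were called in NaB/Ctl and 16 to 21 in DoxyNaB/Doxy. In experiment 1 the arrays with butyrate were on another slide, scanned on another day, than those without it, so that slide and butyrate cannot be told apart in that experiment.

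Tested members were also split by signal over background. Among the 16 HOX probes well above background on all 24 arrays, the SD of the NaB/Ctl change over experiments had a median of 0.33, and 8 of them fell and 3 rose, where 11.3% and 15.4% of all 14516 such probes did (DoxyNaB/Doxy: 10 fell and 1 rose, against 12.2% and 14.1%). Among the other 14 tested probes that median SD was 0.75, and the ranges overlapped (0.11 to 1.17 for the 16 probes and 0.14 to 2.09 for the 14). With no filter, 15 of 43 HOX probes fell and 6 rose in NaB/Ctl (6.14% and 17% of all 34127 probes), and 18 fell and 2 rose in DoxyNaB/Doxy (6.85% and 13.3%). With normexp in place of the scanner's background subtraction, 7 fell and none rose in NaB/Ctl (7.4% and 8.43% of tested probes), and 6 fell and 1 rose in DoxyNaB/Doxy (7.77% and 11.3%). HOXA9, HOXB6, HOXB9 and HOXC6 were called lower in both comparisons under both corrections. The other genes called lower in both comparisons of the main fit lost a call under normexp. HOXA10, HOXB4 and HOXB5 kept it in NaB/Ctl alone. HOXA2, HOXA3, HOXA5, HOXA7, HOXB7, HOXB8 and HOXC8 kept it in neither.

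Where a gene had 2 tested probes, these were compared. Both HOXA9 probes fell, with the second, at chr7:27169670-27169729, changing by -1.09 and -1.48 in the 2 butyrate comparisons. For HOXA10 the probe of higher mean level changed by -0.58 in NaB/Ctl (adjusted p = 0.0195), whereas the other, at chr7:27177760-27177819, went from -1.001 to -0.67 (median -0.79) in Ctl to -3.01 to -2.01 (median -2.12) in NaB and fell (-1.54 ± 0.14, adjusted p = 1.77e-08), so that the HOXA10 call rests on this probe. For HOXB2 the second probe read -4.08 to -2.96 (median -3.31) in Ctl and -6.71 to -1.58 (median -4.19) in NaB, with 3 of 6 NaB arrays well above background. Its change was -0.78 ± 0.66 (adjusted p = 0.290), opposite in sign to the rise of the first. That mean joins opposed sets of experiments. The second probe changed by 1.09 in experiments 2 to 4, the sign of the first, by -2.80 in experiment 1 and by -2.58 in experiments 5 and 6. The second HOXB2 probe and the untested HOXC10 probe are shown because both lie in codons of the homeodomain, where HOX genes resemble each other. Capitals mark the longest run of bases that they share, 10 of 60, within the codons of the recognition helix.
HOXB2, probe at chr17:43975896-43975955, NCBI36, - strand: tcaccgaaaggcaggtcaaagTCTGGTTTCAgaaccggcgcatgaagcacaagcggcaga
HOXC10, probe at chr12:52669367-52669426, NCBI36, + strand: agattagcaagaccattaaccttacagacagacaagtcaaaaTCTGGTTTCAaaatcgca
Over all 903 pairs of HOX probes the longest shared run had a median of 6 bases and a maximum of 13, and 3 probes (these 2 and 1 of HOXD9) carry the recognition helix codons. Whether transcripts of one HOX gene bound the probe of another was not tested.

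**Figure D4:**
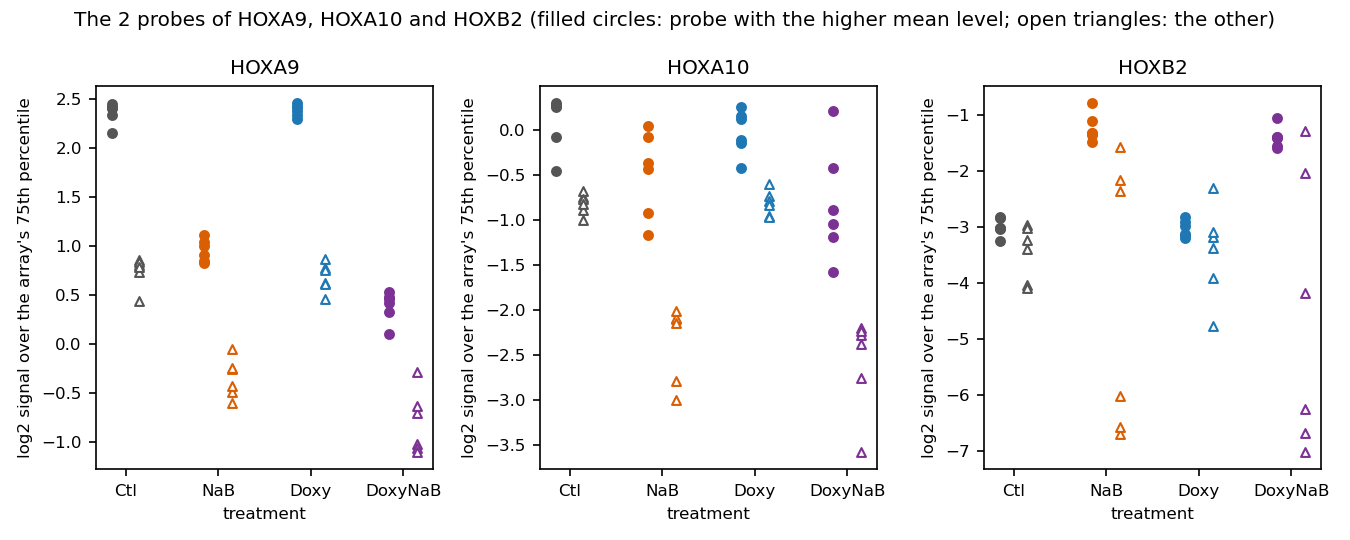
Levels (log2 relative to the array's 75th percentile) of both probes of HOXA9, HOXA10 and HOXB2 on all 24 arrays by treatment, filled circles for the probe of higher mean level. The HOXA9 probes fall together with butyrate, and the second HOXB2 probe spreads from -6.71 to -1.58 within NaB.

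The second question was what doxycycline, the inducer of DN-Tcf4, did to the clusters. In Doxy/Ctl no HOX probe was called by limma, where 0.0685% of all tested probes were called higher and 0.0264% lower. By adjusted p alone none passed either (0.411% and 0.0896%), 3 of 30 had an unadjusted p under 0.05 (12.6% of all tested probes), and the changes ran from -0.32 to 0.54 with a median of -0.06. Those 3 were HOXB9 (0.54, adjusted p = 0.0349), HOXC5 (-0.32, adjusted p = 0.106) and HOXD8 (0.32, adjusted p = 0.0913). HOXB9 was higher in 6 of 6 experiments without overlap, the 1 HOX probe of which this was so (0.67% of all tested probes). None of the 3 TCF7L2 probes passed the test in this comparison either, whereas AXIN2 was lower by limma (-0.58, adjusted p = 0.00289). In the study's western blot, DN-Tcf4 was minimal with doxycycline alone and high when both agents were given.

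In DoxyNaB/NaB again none was called (0.127% of all tested probes higher and 0.253% lower). Changes were below 0 for 26 of 30 HOX probes (57.3% of all tested probes), with a median of -0.24 against -0.03 over all tested probes, and 10 had an unadjusted p under 0.05 (15.3%). Under normexp the HOX median was 0.155, against 0.068 over all tested probes. No direction therefore holds for the HOX probes as a group in this comparison. Both HOXA9 probes were lower by adjusted p alone, at -0.57 ± 0.08 and -0.46 ± 0.08 (adjusted p = 9.29e-05 and 0.00243), and none was higher (1.87% of all tested probes lower and 0.617% higher). The first of them was the 1 HOX probe whose groups did not overlap (1.28% of all tested probes were lower in that way). HOXC9 changed by -0.25 ± 0.06 and HOXD8 by -0.34 ± 0.09 (adjusted p = 0.0275 and 0.0286).

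The test of whether the butyrate response differed without and with doxycycline called 3 HOX probes, in each of which NaB minus Ctl exceeded DoxyNaB minus Doxy (1.03% of all tested probes were called in that direction and 0.216% in the other, where no HOX probe was). The differences were 0.59 ± 0.11 for HOXA9, 0.91 ± 0.17 for HOXB9 and 0.66 ± 0.12 for HOXD8 (adjusted p = 0.00345, 0.00483 and 0.00492), each of that sign in 6 of 6 experiments. HOXA9 and HOXB9 thus fell further, and HOXD8 rose less, when doxycycline was present. The Doxy/Ctl changes of 0.54 for HOXB9 and 0.32 for HOXD8 enter these differences. The second HOXA9 probe gave 0.40 ± 0.12 and did not pass (adjusted p = 0.105). Leaving out 1 experiment at a time kept the differences at 0.51 to 0.67 for HOXA9, 0.83 to 1.01 for HOXB9 and 0.58 to 0.72 for HOXD8, but lost most calls. The adjusted p then ran from 0.00695 to 0.0410 for HOXA9, from 0.0114 to 0.0369 for HOXB9 and from 0.00292 to 0.0410 for HOXD8, with 1, 0 and 1 of 6 refits past the threshold. Among the other settings, normexp, median scaling and a fit to all probes with no filter called none of them.

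**Figure D5:**
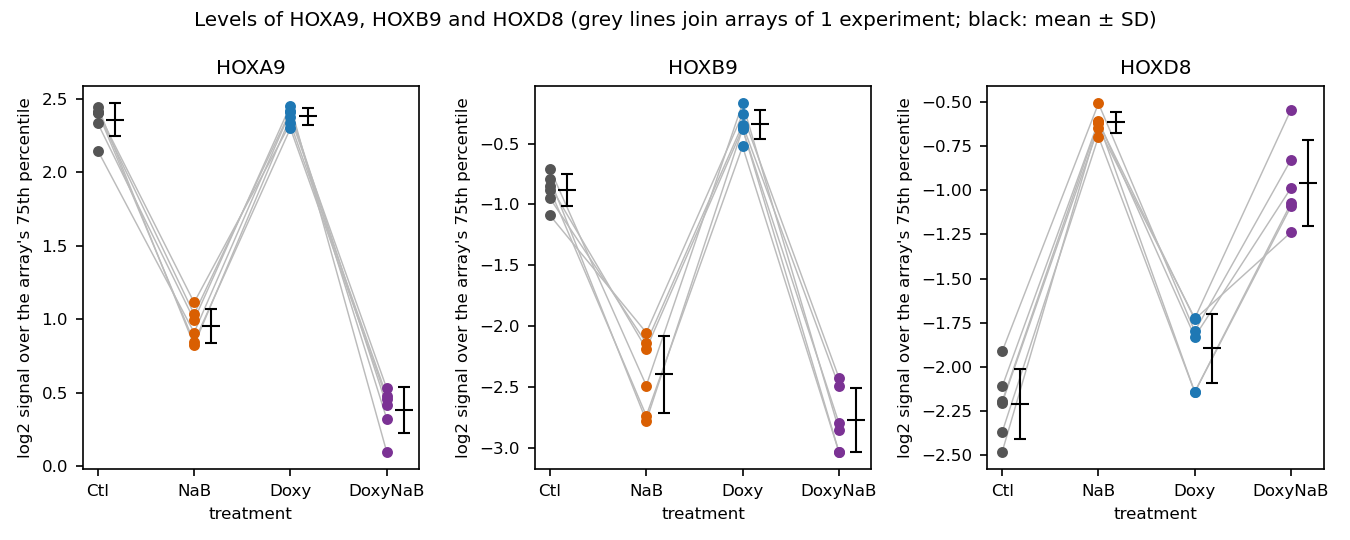
Levels (log2 relative to the array's 75th percentile) of HOXA9, HOXB9 and HOXD8 in Ctl, NaB, Doxy and DoxyNaB, with the mean ± SD of 6 arrays and a line joining the arrays of an experiment. DoxyNaB lies below NaB in mean for each gene, while Doxy lies above Ctl in mean for HOXB9 and HOXD8 and close to it for HOXA9.

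The stretch of 250 bases before the start of transcription is shown for HOXA9 and HOXD8, since one fell and the other rose with butyrate and both passed the test of the difference. The sequences are from RefSeq in GRCh38.p14, in which HOXB9 had no entry among those used here, and capitals mark CCAAT, read on either strand.
HOXA9, chr7:27165538-27165787, GRCh38.p14, - strand: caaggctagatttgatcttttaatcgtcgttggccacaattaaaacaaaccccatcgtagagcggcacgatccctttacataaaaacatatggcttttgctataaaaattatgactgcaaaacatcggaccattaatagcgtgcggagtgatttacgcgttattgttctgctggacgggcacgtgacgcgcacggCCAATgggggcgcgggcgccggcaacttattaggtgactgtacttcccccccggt
HOXD8, chr2:176129455-176129704, GRCh38.p14, + strand: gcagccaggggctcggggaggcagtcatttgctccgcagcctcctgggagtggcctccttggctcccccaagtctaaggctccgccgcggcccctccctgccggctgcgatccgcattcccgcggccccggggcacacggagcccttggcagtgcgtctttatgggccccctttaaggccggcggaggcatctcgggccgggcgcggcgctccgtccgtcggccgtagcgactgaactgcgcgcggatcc
The HOXA9 stretch was 48.8% G and C with 20 CG pairs and 1 CCAAT, and the HOXD8 stretch was 72.4% G and C with 28 CG pairs and no CCAAT. Neither held GGGCGG, nor CTTTGAT or CTTTGAA, the core letters bound by TCF factors, on either strand. Of 35116 RefSeq promoters of this length, 2.26% held CTTTGAT, 3.80% CTTTGAA, 32.0% CCAAT and 42.6% GGGCGG. The 27 entries matched to 20 HOX genes of the array held them in 0, 2, 18 and 13 cases. The median G and C content was 58.8% over HOX entries and 58.0% over all.

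Genes that work with or on the HOX clusters were read from fixed lists. Of 9 TALE cofactors on the array 7 were tested, and in both butyrate comparisons 2 rose and 1 fell (20.7% and 11% of all tested probes in NaB/Ctl, 18.3% and 12.3% in DoxyNaB/Doxy, shares that also stand beside the counts that follow). PBX3, which pairs with HOX proteins on DNA, rose by 1.11 in NaB/Ctl (adjusted p = 1.67e-06), and PBX2 fell by 3.18 on the log2 scale (adjusted p = 1.39e-09), with 4 of 6 NaB arrays well above background. Of 19 Polycomb and Trithorax genes, all tested, 1 rose in NaB/Ctl, and 1 rose and 1 fell in DoxyNaB/Doxy. EZH2, the enzyme that lays down the silencing mark, changed by -0.86 in NaB/Ctl, short of 2-fold, and fell in DoxyNaB/Doxy (-1.05, adjusted p = 3.84e-10). Of 11 tested genes of the retinoid pathway (17 on the array), 2 rose and 5 fell in NaB/Ctl, and 1 rose and 5 fell in DoxyNaB/Doxy. Among those that fell in NaB/Ctl were DHRS3 (-3.27), RARG (-2.37), ALDH1A3 (-2.15) and RXRA (-1.16), which span retinal reduction, retinoic acid synthesis and the nuclear receptors, and CYP26B1 (1.29) and STRA6 (1.94) rose, the latter with 3 of 6 Ctl arrays well above background and so tested through the groups with butyrate.

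The genes beside the clusters moved in shares near those of the whole array in NaB/Ctl. Of 16 non-HOX neighbours, all tested, 5 rose and 1 fell in NaB/Ctl (20.7% and 11% of all tested probes), and 5 rose and none fell in DoxyNaB/Doxy (18.3% and 12.3%). Those that rose in NaB/Ctl were TTLL6 (3.48, with 2 of 6 Ctl arrays well above background, so that it was tested through the groups with butyrate) and CALCOCO2 (1.99) near HOXB, CALCOCO1 (2.41) near HOXC, SKAP2 (1.41) near HOXA and LNPK (1.26) near HOXD, and CBX5 (-1.03), a heterochromatin protein gene near HOXC, fell. Of 3 non-coding RNAs of the clusters, HOXA11-AS alone was tested (-0.19, adjusted p = 0.579), and of 8 ParaHox and flanking homeobox genes, the 3 tested were not called in either comparison, CDX2 among them (-0.67, adjusted p = 2.60e-05). The interaction called none of these genes.

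Markers of the labelled cell type were read beside these counts. Of 8 colon epithelial markers 6 were tested, KRT8, KRT18, KRT19, CDH1 and CDX2 were well above background on all 24 arrays, and EPCAM fell in both butyrate comparisons (-1.45 in NaB/Ctl, adjusted p = 3.61e-05). Their summed linear level relative to the 75th percentile ran from 210.0 to 300.1 in Ctl, 274.6 to 501.9 in NaB, 216.2 to 297.3 in Doxy and 253.6 to 372.2 in DoxyNaB. Of 7 markers of other cell types 2 were tested, DES and CD14, and both rose (2.10 and 1.35 in NaB/Ctl). That list summed to 0.261 to 0.596 in Ctl, 0.754 to 1.67 in NaB, 0.247 to 0.567 in Doxy and 0.639 to 1.90 in DoxyNaB, with COL3A1 above background on no array. The part of these markers in the HOX values was not tested.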

How the data were processed

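Total RNA of 24 cultures (4 treatments in 6 experiments, described as biological replicates) was hybridised in 1 colour to Agilent human 4x44K arrays. The deposited files hold spot intensity as the authors scanned it with Agilent Feature Extraction 9.5.3.1, already background-subtracted, with positions in NCBI36 (hg18). Levels were the mean log2 processed signal of a probe's spots without an outlier flag, minus log2 of the array's 75th percentile over non-control spots. limma 3.58.1 (R 4.3.3) fitted treatment and experiment to all 24 arrays, and a probe was called at more than 2-fold with p under 0.01 after Benjamini-Hochberg adjustment over the 18966 probes tested (the interaction needed the adjusted p alone). Figures and tables used Python 3.11.15. The probe of highest mean level stood for a gene with several in the fixed lists, whereas counts of HOX genes called took in any probe. By the probe of highest mean level alone, 13 HOX genes fell in NaB/Ctl and 16 in DoxyNaB/Doxy. The text names HOX genes called in any comparison plus the rest by value. Experiment numbers come from the labels and the study's methods paired by them; treatment-centred levels correlated within an experiment at 0.26 to 0.89, except NaB with DoxyNaB of experiment 3 (-0.22). The arrays came from 7 slides and 4 scan days. The fit was tested on simulated data. Members, lists and tests were chosen with earlier results of these data known, and the alternatives are in the closing section. A few genes of the lists are not reported here. The number of arrays limits the precision.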

Additional observations from a re-analysis of the deposited data

Results flagged for a closer look

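Of 84 groups of 6 arrays for the HOX probes of named genes, 4 held a value far from the other 5, and about 5% of groups would by chance. The second HOXA9 probe read 0.43 in Ctl of experiment 1, against 0.73 to 0.86 in the other Ctl arrays. HOXB5 read -0.0179 in Doxy of experiment 1, against -1.05 to -0.89. HOXC9 read 1.64 in Doxy of experiment 1, against 0.95 to 1.15. HOXB2, at its probe of higher level, read -1.05 in DoxyNaB of experiment 2, against -1.58 to -1.40. The 4 values lie on 3 arrays, since those of HOXB5 and HOXC9 share the Doxy array of experiment 1.

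The butyrate response was called as different without and with doxycycline for HOXA9 (0.59), HOXB9 (0.91) and HOXD8 (0.66), as the log2 change in NaB/Ctl minus that in DoxyNaB/Doxy. With 1 experiment left out at a time, 1, 0 and 1 of 6 refits kept the call. Normexp and median scaling called none of them.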

How the results depend on the processing

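NaB/Ctl called 18 HOX probes and DoxyNaB/Doxy 19. These counts were 7 and 7 with normexp background correction, 11 and 11 for probes well above background on all arrays, and 10 and 11 in experiments 2 to 4 alone, against 22 and 22 in experiments 5 and 6 alone. Leaving out 1 experiment gave 17 to 20 and 16 to 21, 0 to 0 in Doxy/Ctl and in DoxyNaB/NaB, and 0 to 1 for the interaction. With no fold threshold DoxyNaB/NaB called 2. The interaction, with 3 calls, gave 0 with normexp, median scaling, no filter, the methods' t-test after Benjamini-Hochberg adjustment, experiments 2 to 4 alone and experiments 5 and 6 alone. With no replicate block, that is without pairing by experiment, it gave 1, and NaB/Ctl and DoxyNaB/Doxy gave 16 and 16. The methods' t-test gave 15 and 14 HOX probes unadjusted and 14 and 13 adjusted. HOXA2 in DoxyNaB/Doxy turned to 0.31 with normexp. A 75th percentile over probes, chosen after seeing the data, left HOXB2 and HOXD8 higher in NaB/Ctl and HOXB9 and HOXD8 in the interaction. Of 999 other values for named genes, 874 kept direction and side of the threshold, 120 lost the call, 4 gained it and 1 reversed. The cause of these shifts was not tested. Weak signal limits HOXD, where 2 of 9 genes were tested.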
